A study of Homo sapiens with 6 samples.

Results

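The ephrin, semaphorin, netrin and Slit ligands and their Eph, plexin, neuropilin, UNC5 and Robo receptors were examined in HepG2 cells after silencing of DGUOK, the mitochondrial kinase that phosphorylates purine deoxynucleosides. Members were the protein-coding genes in the count table whose symbols belong to these families, which gave 68 genes among 34036 genes listed. HepG2 is a hepatocyte-like line derived from a liver carcinoma. Cells of the siDGk group were transfected with a pool of siRNAs against DGUOK and those of the siCON group with a nontargeting siRNA, both with the reagent Lipofectamine RNAiMAX, and RNA was collected 48 h later from 3 cultures per group. The labels name polyA RNA, but their protocol leaves the choice of selection step unfilled. The groups were read from the sample titles and library names, because the treatment field names the control siRNA for all 6 samples. Libraries 1 to 3 of each group are its replicates of that number. Library totals were 19065684, 18915508 and 10527216 counts across siCON libraries 1 to 3 and 18613138, 15978314 and 21334876 counts across siDGk libraries 1 to 3.

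Guidance ligands were first known for steering growing axons, and the same families control cell adhesion, cell sorting, vessel growth and epithelial organisation in many tissues. Ephrins are bound to the membrane and signal to Eph receptor tyrosine kinases on neighbouring cells, with signals running in both directions. Class 3 semaphorins are secreted and act through neuropilin and plexin complexes, whereas other semaphorins are mostly membrane-bound and bind plexins directly. Netrins signal through DCC, neogenin and UNC5 receptors, and Slits through Robo receptors, and in both cases the output reaches the actin cytoskeleton.

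DGUOK itself was counted 1019, 997 and 506 times across siCON libraries 1 to 3 and 168, 171 and 146 times across siDGk libraries 1 to 3. Every siDGk library was below every siCON library, with a log2 fold change (log2FC) of −2.57 and an adjusted p (padj) of 1.64e-08 in edgeR's quasi-likelihood test across all genes. The label of a hepatocyte-derived line was checked against 12 hepatocyte genes, all of which passed the count filter. Their summed level, in counts per 1e6 counts (CPM), was 59890, 55480 and 53460 across siCON libraries 1 to 3 and 33110, 28930 and 27480 across siDGk libraries 1 to 3. Of these 12 genes 9 were called lower and 0 higher, with ALB, encoding albumin, at a mean of 16110 CPM in siCON, the highest of the list there, and 5401 CPM in siDGk. The part of this shift in the guidance genes was not tested, and in these bulk cultures fewer cells of a type and less RNA per cell cannot be told apart. Library siDGk replicate 1 stood apart in low counts, with at least 1 count for 21057 genes against 16205 to 17583 in the other 5 libraries.

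Of the 68 members, 9 had no count in any library and another 16 had counts too low for the filter, which left 43 tested. A gene was called at padj under 0.05 with an absolute log2FC above 0.5. By this rule 14 members (32.6% of those tested) were called, against 14.1% of all 14476 genes tested. There were 9 members called higher in siDGk, where 7.42% of all genes tested were, and 5 called lower, where 6.68% were. For 23 members all libraries of 1 group lay beyond all of the other (53.5%), and so they did for 36% of all genes tested. All members are protein-coding. Of the 12423 protein-coding genes tested, 15.5% were called and 38.1% did not overlap between groups. Their median log2FC was −0.003 and their median absolute log2FC 0.306. The median log2FC of the tested members was 0.13, beside 0.02 over all genes tested, and the median absolute log2FC was 0.52 beside 0.33. The median rested on single libraries: it was 0.033 without siCON replicate 1, beside 0.0284 over all genes, 0.044 without siDGk replicate 1, beside 0.0024, and 0.064 without siDGk replicate 3, beside 0.0095. Without siDGk replicate 1, 6 members were called higher and 6 lower. The members together held 0.319%, 0.336% and 0.333% of all counts across siCON libraries 1 to 3 and 0.342%, 0.322% and 0.341% across siDGk libraries 1 to 3, so the summed share overlapped between the groups while single members moved in opposite directions. The p-values set the difference between groups against the spread within each group of 3 cultures, and say nothing of spread beyond these 6 cultures.

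**Figure D1:**
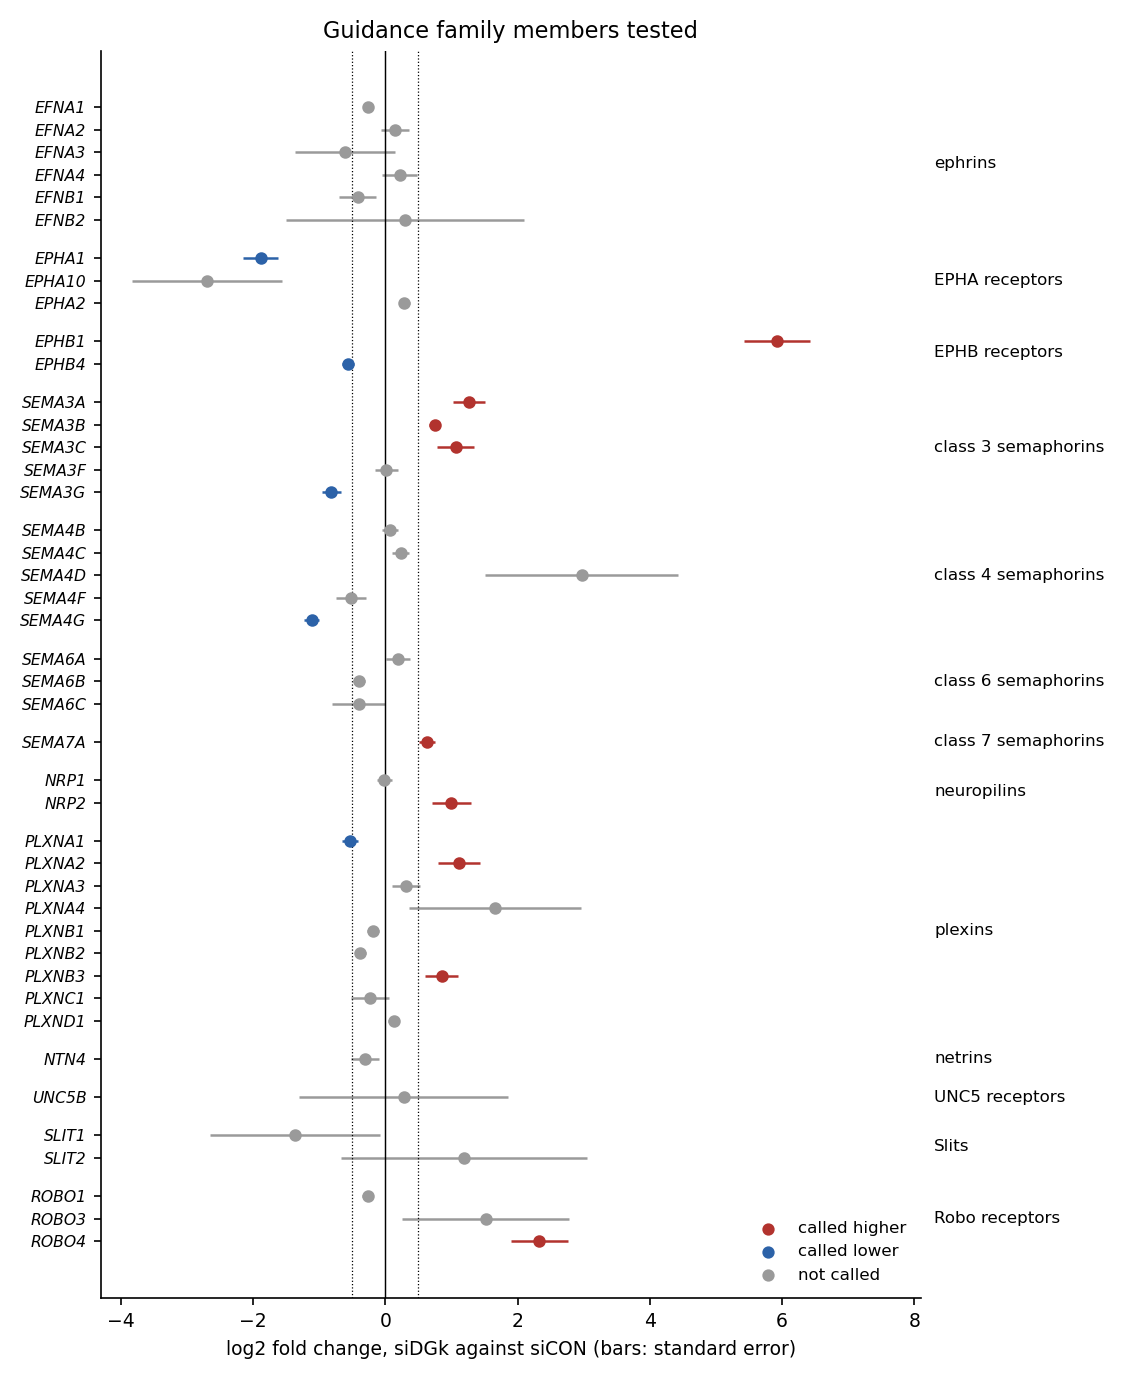
Log2 fold change of siDGk against siCON for the 43 members tested, by family, with standard errors as bars; dotted lines mark the fold change threshold of 0.5 in either direction. The largest rise was that of EPHB1 at 5.93, and the wide bars belong to members with few counts, such as SEMA4D and SLIT2.

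Among the ephrins, 6 of 8 genes were tested and 0 were called by edgeR, with 1 at padj under 0.05. EFNA1, a ligand of EPHA2 known to respond to inflammatory cytokines, had the highest level of the family. It was measured at 342, 390 and 332 CPM across siCON libraries 1 to 3 and at 300.4, 299 and 288 CPM across siDGk libraries 1 to 3. All siDGk libraries were below all siCON libraries, but the log2FC of −0.26 (standard error 0.08, padj = 0.0256 in edgeR's test) did not reach the fold threshold. EFNA2, EFNA4 and EFNB1 overlapped between groups at means of 18.02, 11.3 and 15.6 CPM in siCON and 19.9, 13.2 and 11.6 CPM in siDGk. The other B-type ligands were lower than EFNB1: EFNB2 had 21 counts in siCON replicate 3, 19 and 22 in siDGk replicates 1 and 2 and 0 in the other libraries, and EFNB3 had 27, 0 and 3 counts across siCON libraries 1 to 3 and 0 in every siDGk library.

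The Eph receptors held both the largest rise and the largest called fall. EPHB1 (ENSG00000154928.16), a receptor for B-type ephrins studied mainly in nervous tissue and vessels, was counted 12, 0 and 7 times across siCON libraries 1 to 3 and 401, 387 and 643 times across siDGk libraries 1 to 3. It was near the detection limit in the siCON libraries and plainly present in each siDGk library, at 0.436 ± 0.378 and 25.0 ± 4.09 CPM (SD, n = 3). The log2FC was 5.93 (standard error 0.50, padj = 7.93e-08 in edgeR's test). Its size rests on few siCON counts, since it ran from 5.25 to 6.597 when single libraries were left out. With DESeq2 the log2FC was 5.865 without shrinkage and 0.82 with shrunken fold changes (padj = 3.32e-07 in DESeq2's test for both).

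EPHA1 (ENSG00000146904.8), an epithelial receptor for A-type ephrins, went the other way. Its counts were 553, 487 and 265 across siCON libraries 1 to 3 and 139, 163 and 96 across siDGk libraries 1 to 3. The groups were well apart at 26.9 ± 2.30 and 7.32 ± 2.81 CPM (SD, n = 3), with a log2FC of −1.89 (standard error 0.26, padj = 3.93e-05 in edgeR's test). EPHB4 (ENSG00000196411.9), a receptor of veins whose ligand ephrin-B2 marks arteries, fell less, from 165, 154 and 165 CPM across siCON libraries 1 to 3 to 120, 98.98 and 108 CPM across siDGk libraries 1 to 3. Its log2FC was −0.56 (padj = 0.000295 in edgeR's test), and −0.49, just under the fold threshold, without siDGk replicate 2. EPHA2, a widely expressed epithelial receptor, was at 188, 210 and 202 CPM across siCON libraries 1 to 3 and at 247, 263 and 223 CPM across siDGk libraries 1 to 3. All its siDGk libraries were above all siCON libraries, with a log2FC of 0.29 (padj = 0.0229) that stayed below the fold threshold.

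EPHA10, an Eph receptor without kinase activity, had 55, 35 and 15 counts across siCON libraries 1 to 3 and 3, 6 and 9 across siDGk libraries 1 to 3. It passed the filter through the siCON libraries alone, and its log2FC of −2.69 had a standard error of 1.14 and a padj of 0.113 in edgeR's test. DESeq2 gave a padj of 0.0144 for it, and the 12 alternative fits that tested it ranged up to 0.373. EPHA5, EPHA7 and EPHA8 had no count in any library. EPHA3, EPHA4, EPHA6, EPHB2, EPHB3 and EPHB6 were below the filter, and EPHB6 drew 48 of its counts from siDGk replicate 2.

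**Figure D2:**
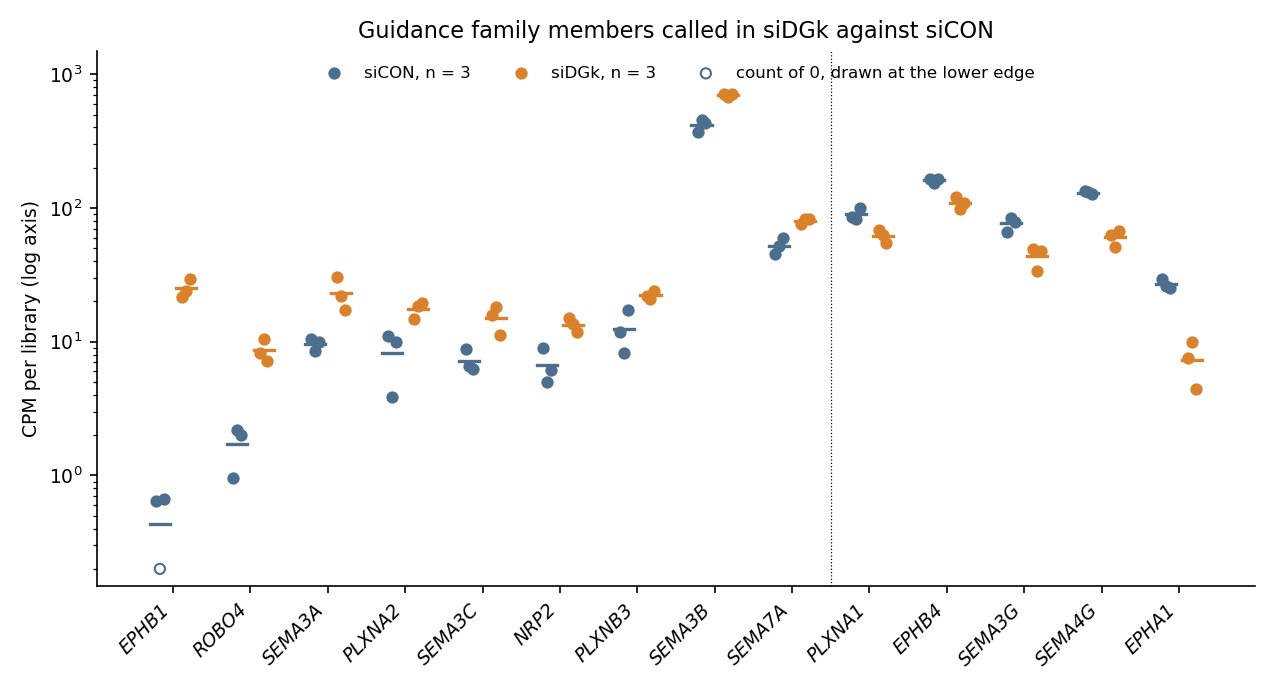
CPM in each library on a log axis for the 14 members called, those called higher to the left of the dotted line; short bars are group means and the open circle is a count of 0. Points of siCON and siDGk do not overlap for any of the 14, and EPHB1 and ROBO4 start from the lowest siCON levels.

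The promoter windows of the 3 Eph receptors called are shown because these receptors moved in opposite directions. Each window holds the 250 bases before the start of the gene in the RefSeq table for GRCh38.p14, read 5′ to 3′ on the strand of the gene, and none of the 3 shares a base with an annotated exon. Capitals mark matches on either strand to the GC box letters GGGCGG and to CCAAT.
EPHB1, chr3:134795010-134795259, plus strand: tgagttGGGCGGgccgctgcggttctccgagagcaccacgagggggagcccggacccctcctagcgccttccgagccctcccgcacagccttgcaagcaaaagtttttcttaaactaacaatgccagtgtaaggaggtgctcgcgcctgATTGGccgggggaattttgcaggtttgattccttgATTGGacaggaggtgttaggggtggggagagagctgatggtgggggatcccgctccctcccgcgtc
EPHA1, chr7:143408857-143409106, minus strand: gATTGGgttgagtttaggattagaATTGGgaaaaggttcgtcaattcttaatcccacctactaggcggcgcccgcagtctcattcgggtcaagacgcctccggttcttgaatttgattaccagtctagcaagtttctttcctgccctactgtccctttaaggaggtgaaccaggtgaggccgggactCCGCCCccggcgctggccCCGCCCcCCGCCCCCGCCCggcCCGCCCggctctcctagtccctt
EPHB4, chr7:100827524-100827773, minus strand: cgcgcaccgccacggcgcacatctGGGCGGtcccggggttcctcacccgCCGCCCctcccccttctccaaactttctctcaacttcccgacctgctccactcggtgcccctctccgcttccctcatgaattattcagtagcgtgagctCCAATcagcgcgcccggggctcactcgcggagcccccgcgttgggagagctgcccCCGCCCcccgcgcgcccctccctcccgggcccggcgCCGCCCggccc
The EPHB1 window held 1 GC box match and 2 CCAAT matches, the EPHA1 window 5 and 2, and the EPHB4 window 4 and 1. CpG dinucleotides numbered 15, 17 and 29 in the windows of EPHB1, EPHA1 and EPHB4. Of the 68 members, 58 had at least 1 window in the table, 90 windows in all. A GC box match was present in 71.1% of the member windows and in 62.5% of the 14664 windows of genes tested. A CCAAT match was present in 30.0% and 32.6%. These sets are unlike, because 36 of the member windows belong to members that were not tested. Of those 36 windows, 58.3% held a GC box match. It was held by 78.6% of 14 windows of members called higher, 83.3% of 6 called lower and 79.4% of 34 tested but not called. CCAAT matches were in 11 of the 36 windows, 3 of the 14, 3 of the 6 and 10 of the 34. Of all 35116 windows in the table, 42.6% held the GC box letters and 32.0% the CCAAT letters. TATAAA and the AP-1 letters TGANTCA, searched on both strands, were found in 3 and 1 of the 90 member windows (3.33% and 1.11%). Of these, 2 windows with TATAAA and 0 with the AP-1 letters belonged to members not tested. The shares were 5.94% and 4.57% of the windows of genes tested and 10.7% and 6.57% of all windows. None of the 20 windows of called members held either.

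Semaphorins were the family with the most calls and the most genes tested, with 4 higher and 2 lower among 14 tested of 20. The share called was 42.9%, beside 14.1% of all genes tested. The class 3 genes, whose products are secreted, accounted for 4 of these 6 calls. SEMA3B (ENSG00000012171.19), which lies in a region of chromosome 3 often lost in tumours, was at 371, 456 and 429 CPM across siCON libraries 1 to 3 and at 715, 673 and 718 CPM across siDGk libraries 1 to 3. It was the most abundant semaphorin and the groups were far apart compared with their spread, with a log2FC of 0.75 (standard error 0.08, padj = 2.23e-06 in edgeR's test). Its share of all member counts rose from 11.4%, 13.4% and 12.8% across siCON libraries 1 to 3 to 20.8%, 21.3% and 21.5% across siDGk libraries 1 to 3.

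SEMA3A (ENSG00000075213.10), the classical collapsin that repels axons through neuropilin 1, had 196, 159 and 105 counts across siCON libraries 1 to 3 and 564, 356 and 372 across siDGk libraries 1 to 3. It rose with a log2FC of 1.26 (standard error 0.24, padj = 0.000924 in edgeR's test). SEMA3C, which binds both neuropilins, was at 8.81, 6.55 and 6.196 CPM across siCON libraries 1 to 3 and at 15.9, 18.3 and 11.2 CPM across siDGk libraries 1 to 3. The groups did not overlap at a log2FC of 1.07 (padj = 0.0102 in edgeR's test). The call was lost without siCON replicate 3, siDGk replicate 1 or siDGk replicate 2, where padj was 0.0546, 0.0535 and 0.0588. In those fits the log2FC was 0.98, 1.01 and 0.91. SEMA3G, a class 3 member known from endothelium and fat, fell from 66.7, 84.4 and 78.8 CPM across siCON libraries 1 to 3 to 49.4, 33.9 and 47.3 CPM across siDGk libraries 1 to 3, with a log2FC of −0.81 (padj = 0.000564 in edgeR's test). SEMA3F, 78.5 kb from SEMA3B on chromosome 3, overlapped between groups at 61.6 ± 2.59 and 62.1 ± 20.9 CPM (SD, n = 3). Its siDGk libraries were spread widely, at 57.0, 44.3 and 85.1 CPM in replicates 1, 2 and 3.

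In class 4, SEMA4G was the gene called. Its product is a transmembrane semaphorin, and its counts were 2516, 2457 and 1325 across siCON libraries 1 to 3 and 1168, 823 and 1464 across siDGk libraries 1 to 3. After scaling for depth the groups were clearly apart, at 131 ± 4.05 and 60.4 ± 8.68 CPM (SD, n = 3), with a log2FC of −1.11 (standard error 0.11, padj = 1.07e-06 in edgeR's test). SEMA4B, SEMA4C and SEMA4F overlapped between groups, with log2FC of 0.07, 0.23 and −0.52. SEMA4D, best known from lymphocytes, had 19, 0 and 0 counts across siCON libraries 1 to 3 and 28, 112 and 2 across siDGk libraries 1 to 3. A single library, siDGk replicate 2, held most of these counts, and padj was 0.181. SEMA4A was below the filter.

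SEMA7A, the glycolipid-anchored semaphorin that signals through integrins and plexin C1, rose from 45.3, 52.0 and 59.6 CPM across siCON libraries 1 to 3 to 76.0, 82.2 and 83.3 CPM across siDGk libraries 1 to 3. The log2FC was 0.63 (standard error 0.12, padj = 0.00121 in edgeR's test). In class 6, 3 of 4 genes were tested and 0 were called by edgeR, with 1 at padj under 0.05. That gene, SEMA6B, had all siDGk libraries below all siCON libraries at 239 ± 7.20 and 181 ± 19.0 CPM (SD, n = 3), with a log2FC of −0.40 and a padj of 0.00306. Class 5 had no gene tested: SEMA5B had no count, and SEMA5A had 7 and 11 counts in siDGk replicates 1 and 3 and 0 elsewhere. SEMA3D and SEMA6D had no count, and SEMA3E had 7 counts in siDGk replicate 2 alone.

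All 11 plexins and neuropilins passed the filter, with 3 called higher and 1 lower (36.4% called, beside 14.1% of all genes tested). Neuropilins are co-receptors that bind class 3 semaphorins and VEGF, and the pair differed in these libraries. NRP2 was at 8.97, 5.01 and 6.10 CPM across siCON libraries 1 to 3 and at 15.02, 13.5 and 11.8 CPM across siDGk libraries 1 to 3. Its siDGk libraries were all higher, at a log2FC of 1.00 (standard error 0.29, padj = 0.0201 in edgeR's test). NRP1 was at 73.2, 71.0 and 73.7 CPM across siCON libraries 1 to 3 and at 75.3, 68.0 and 72.7 CPM across siDGk libraries 1 to 3, with a log2FC of −0.01 (standard error 0.11). The difference between the 2 neuropilins in response was not tested.

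Plexins are the signalling receptors of semaphorins and carry a GTPase-activating domain. Among the class A plexins, which partner with neuropilins, PLXNA1 fell and PLXNA2 rose. PLXNA1 was at 85.6, 83.1 and 100.2 CPM across siCON libraries 1 to 3 and at 68.7, 62.7 and 55.0 CPM across siDGk libraries 1 to 3, a log2FC of −0.53 (padj = 0.0038 in edgeR's test). PLXNA2 was at 10.95, 3.89 and 9.91 CPM across siCON libraries 1 to 3 and at 14.9, 18.6 and 19.6 CPM across siDGk libraries 1 to 3, a log2FC of 1.11 (padj = 0.0179 in edgeR's test). In siCON the lowest PLXNA2 library, replicate 2, lay far below the others. PLXNB3, a receptor for semaphorin 5A, was at 11.9, 8.26 and 17.3 CPM across siCON libraries 1 to 3 and at 22.04, 20.99 and 23.9 CPM across siDGk libraries 1 to 3. The siDGk libraries were close together and above the scattered siCON libraries, with a log2FC of 0.85 (padj = 0.0196 in edgeR's test).

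The calls of NRP2 and of these plexins were sensitive to single libraries in edgeR's test. NRP2 was no longer called when siCON replicate 2 (padj = 0.0757), siCON replicate 3 (padj = 0.0797) or siDGk replicate 1 (padj = 0.103) was left out. Its log2FC in those fits was 0.82, 0.94 and 0.90. PLXNA2 lost its call without siCON replicate 2 (padj = 0.0516, log2FC 0.76) or siDGk replicate 3 (padj = 0.0572, log2FC 1.02). PLXNA1 passed padj but was under the fold threshold without siCON replicate 3 or siDGk replicate 3, at log2FC of −0.44 and −0.45. For PLXNB3 the call ended without siCON replicate 1 (padj = 0.0627, log2FC 0.83) or 2 (padj = 0.0827, log2FC 0.62). It also ended without siDGk replicate 1 (padj = 0.0695, log2FC 0.84) or 3 (padj = 0.0586, log2FC 0.79).

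The most abundant plexin, PLXNB2, binds class 4 semaphorins and is known in epithelia. It was at 376, 386 and 393 CPM across siCON libraries 1 to 3 and at 325, 272 and 292 CPM across siDGk libraries 1 to 3. All siDGk libraries were lower, and the log2FC of −0.38 (standard error 0.08, padj = 0.0022 in edgeR's test) was under the fold threshold. PLXNB1 and PLXND1 had log2FC of −0.18 and 0.13 with padj of 0.172 and 0.339. PLXNA3 and PLXNC1 overlapped between groups, and PLXNA4 had 6, 12 and 1 counts across siCON libraries 1 to 3 against 22, 17 and 27 across siDGk libraries 1 to 3, with padj of 0.44.

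Netrins and UNC5 receptors were nearly silent. NTN4, a netrin that binds laminins in basement membranes, was the only well-counted gene of the 8, at 23.2, 17.5 and 26.3 CPM across siCON libraries 1 to 3 and at 18.8, 20.2 and 14.8 CPM across siDGk libraries 1 to 3. The groups overlapped at a log2FC of −0.31 (padj = 0.357 in edgeR's test). UNC5B, the other gene tested, had 28, 0 and 5 counts across siCON libraries 1 to 3 and 11, 0 and 39 across siDGk libraries 1 to 3. NTN5 and UNC5A had no count, and NTN1, NTN3, UNC5C and UNC5D had at most 14 counts in any library. DCC, the main attractive netrin receptor, had no count either.

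Among Slits and Robos, ROBO4 was called. ROBO4 (ENSG00000154133.14), the Robo receptor of vascular endothelium that stabilises vessels, was counted 18, 41 and 21 times across siCON libraries 1 to 3 and 152, 169 and 157 times across siDGk libraries 1 to 3. Each siDGk library had several times the level of each siCON library, at 8.61 ± 1.63 against 1.72 ± 0.660 CPM (SD, n = 3). The log2FC was 2.33 (standard error 0.44, padj = 0.000727 in edgeR's test), and between 2.03 and 2.57 when single libraries were left out. With DESeq2 it was 2.328 without shrinkage and 1.33 with shrunken fold changes. ROBO1, the broadly expressed Slit receptor, had 280, 250 and 245 CPM across siCON libraries 1 to 3 and 208, 205 and 231 CPM across siDGk libraries 1 to 3. Its siDGk libraries were all lower, and its log2FC of −0.27 (padj = 0.0319 in edgeR's test) was under the fold threshold. ROBO3, 2.22 kb from ROBO4 on chromosome 11, had 15, 3 and 3 counts across siCON libraries 1 to 3 and 24, 21 and 23 across siDGk libraries 1 to 3, with padj of 0.476.

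The Slit ligands were at the edge of detection. SLIT3 had 0 counts in each siCON library and 6, 17 and 21 across siDGk libraries 1 to 3, and was below the filter. SLIT1 had 23, 41 and 17 counts across siCON libraries 1 to 3 and 9, 24 and 0 across siDGk libraries 1 to 3, and SLIT2 had 14 counts in 1 siCON library and 11 and 20 in 2 siDGk libraries. Neither passed the test, with padj of 0.544 and 0.743.

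Since ROBO4 marks endothelium, its values are set beside a list of 9 endothelial markers. Their summed level was 28.4, 32.4 and 24.5 CPM across siCON libraries 1 to 3 and 161, 250 and 200.1 CPM across siDGk libraries 1 to 3. Of the 9 genes 5 were tested, 2 were called higher and 0 lower. The highest CPM was that of ESAM, an adhesion molecule of endothelial junctions and platelets, at 14.9 ± 3.59 CPM in siCON and 92.8 ± 1.53 CPM in siDGk (SD, n = 3), a log2FC of 2.62 (padj = 1.14e-09 in edgeR's test). TIE1, an endothelial receptor kinase, rose with a log2FC of 2.90 (padj = 2.71e-09). CLDN5 had no count in any library, and TEK and EMCN had counts in siDGk replicate 2 alone, 13 and 27. VWF, PECAM1 and CDH5 had 510, 258 and 145 counts in siDGk replicate 2 and at most 61 in any other library. Without siDGk replicate 2 the log2FC of ROBO4 was 2.18 (padj = 0.00497). ESAM and TIE1 were raised in all 3 siDGk libraries, and the part of these markers in the ROBO4 change was not tested.

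**Figure D3:**
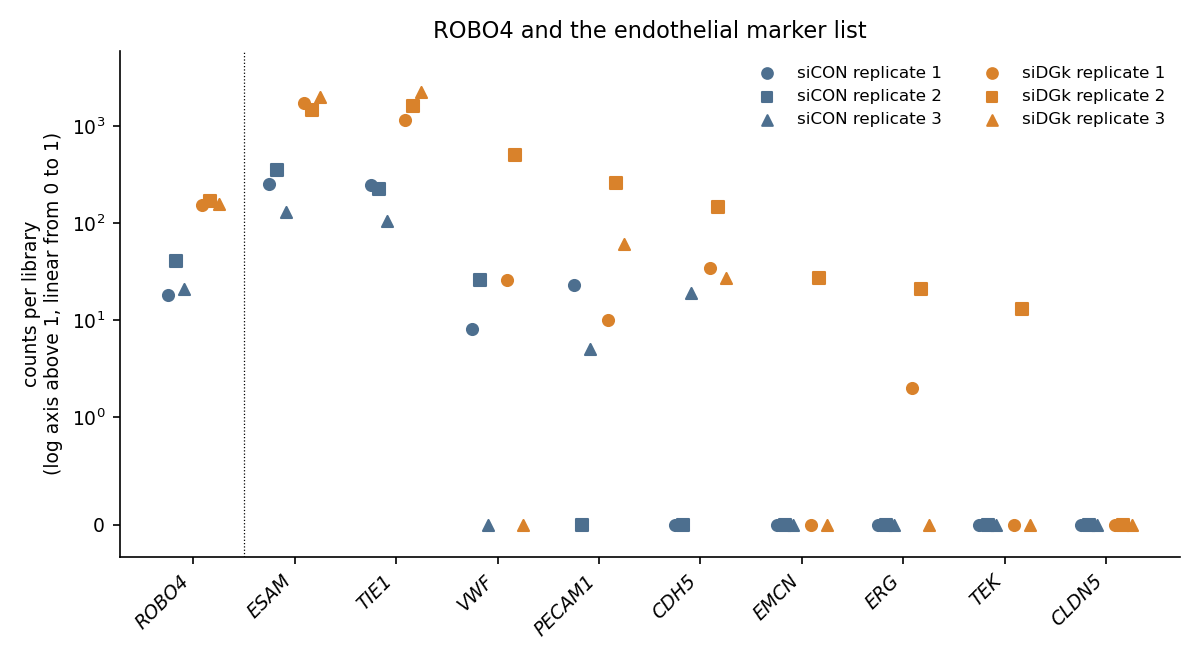
Counts in each library for ROBO4 and the 9 endothelial markers, on an axis that is logarithmic above 1 and linear from 0 to 1. ROBO4, ESAM and TIE1 are higher in all 3 siDGk libraries, whereas VWF, PECAM1 and CDH5 are highest in siDGk replicate 2 and CLDN5 is at 0 throughout.

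Levels were compared between members as CPM per kb of exon, using lengths from Gencode 44. EFNA1 ranked first in both groups at 164 ± 14.3 in siCON and 137 ± 3.10 CPM per kb in siDGk (SD, n = 3), and SEMA3B ranked second at 72.5 ± 7.52 and 122 ± 4.37 CPM per kb. The next 3 were PLXNB2, SEMA6B and EPHA2 in siCON, at 52.9 ± 1.17, 50.7 ± 1.53 and 48.3 ± 2.74 CPM per kb, a set whose neighbours lay close to each other's spread. In siDGk EPHA2 ranked 3, at 59.0 ± 4.94 CPM per kb. EPHB1 moved from rank 41 to rank 20 of 68, from 0.0746 ± 0.0647 to 4.28 ± 0.70 CPM per kb. At that level it lay near NTN4 in siDGk, at 4.11 ± 0.638 CPM per kb, and below EPHB4, at 16.97 ± 1.66 CPM per kb. EPHA1 moved from rank 20 to rank 29 and SEMA4G from rank 7 to rank 13. ROBO4 stayed low, at 0.259 ± 0.0996 in siCON and 1.30 ± 0.246 CPM per kb in siDGk.

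**Figure D4:**
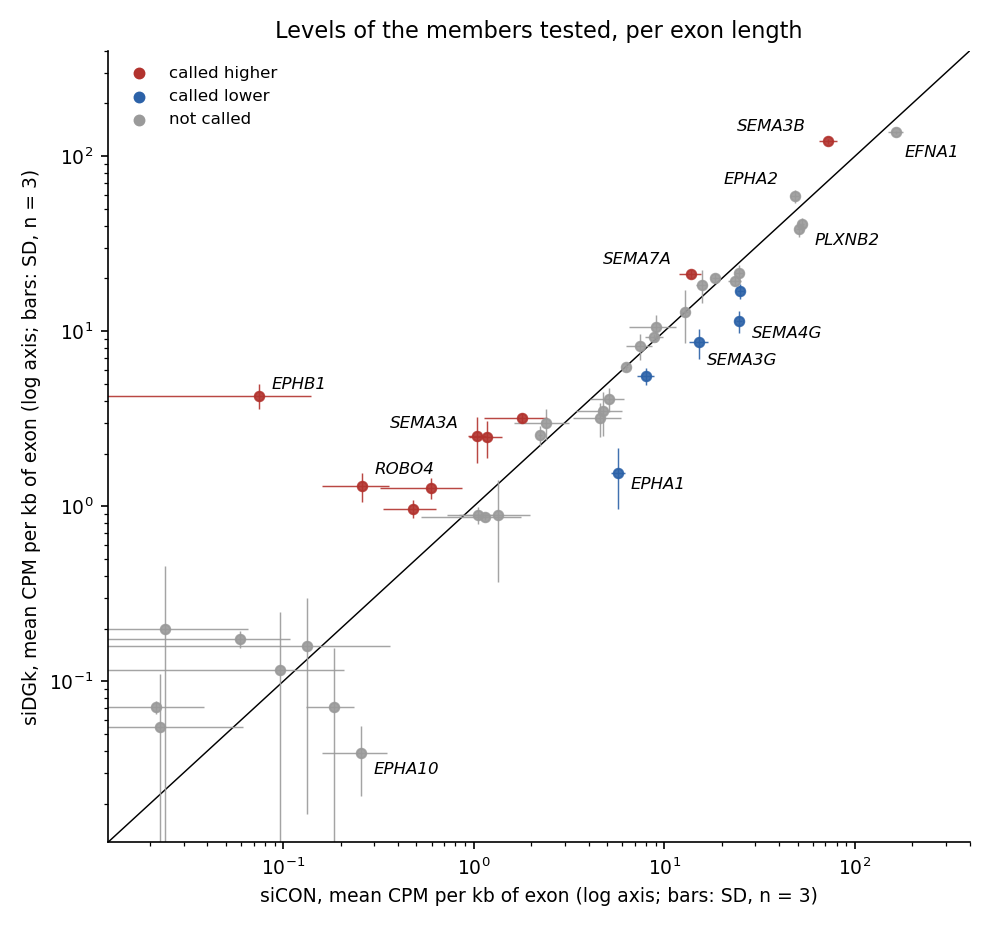
Mean CPM per kb of exon in siDGk against siCON for the 43 members tested, both axes logarithmic, with SD over 3 libraries as bars and the line of equal levels. EPHB1 lies farthest above the line and EFNA1 and SEMA3B have the highest levels, while several low members at the lower left, such as EFNB2 and UNC5B, have bars that cross the line.

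Positions were taken from Gencode 44 on GRCh38. The 14 called members lay near 109 other genes that were tested within 250 kb, of which 4 were called higher and 10 lower, beside 7.42% and 6.68% of all genes tested. The 1 tested gene near EPHB1 was not called. Around ROBO4, 2 of 14 tested neighbours were called higher and 0 lower by edgeR, and 1 of the 2 was ESAM, 121 kb away. Counting used Gencode 27, ignored strand and left out reads shared between genes, so exons that overlap another gene there make a level uncertain. Overlaps were taken from Gencode 44, and which of them Gencode 27 held was not checked. The share of exon bases that overlap another gene was 28.1% for SEMA4G, which overlaps MRPL43 on the opposite strand. It was 20.4% for PLXNB3, which overlaps SRPK3, and 18.01% for ROBO4, which overlaps noncoding genes on the opposite strand. It was 5.92% for EPHB1, 1.75% for EPHA1 and 1.196% for SEMA3B. Neither MRPL43, at a log2FC of 0.26 (padj = 0.197), nor SRPK3, at 2.61 (padj = 0.294), was called, and for both all siDGk libraries were above all siCON libraries.

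Partners and effectors were summarised over 4 lists that together name 88 genes. Of these, 68 were tested, and 8 were called higher and 7 lower (22.1% called, beside 14.1% of all genes tested). Of the 68, 23 had padj under 0.05, beside 2847 of all 14476 genes tested. The share called was 9.52% in the Eph and ephrin list, 29.2% in the semaphorin list, 36.4% in the netrin list and 16.7% in the Slit and Robo list. Among 23 Eph and ephrin effectors, FYN, a Src family kinase, had 30.2 ± 3.58 CPM in siCON and 68.0 ± 7.95 CPM in siDGk (SD, n = 3), and rose with a log2FC of 1.17 and a padj of 8.83e-06 in edgeR's test. VAV3, an exchange factor, fell with a log2FC of −0.75 (padj = 0.0452), a call lost in 5 of the 6 fits that left out a library. The related VAV2 had a log2FC of −0.49 (padj = 0.000879), just inside the fold threshold. The adaptor GRB2, with the highest CPM of the list in siCON, had a log2FC of −0.02 (padj = 0.916), and the phosphatase ACP1, with the highest in siDGk, 0.20 (padj = 0.0985).

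Among 32 partners and effectors of semaphorins, 24 were tested, with 4 called higher and 3 lower. MICAL1, MICAL2 and MICAL3 encode enzymes of a family that oxidises actin, and they did not move together. MICAL2 had 8.88 ± 2.35 CPM in siCON and 24.9 ± 1.94 CPM in siDGk (SD, n = 3), a log2FC of 1.48 (padj = 0.000122 in edgeR's test), and MICAL1 rose with a log2FC of 0.65 (padj = 0.00273). MICAL3 fell with a log2FC of −0.81 (padj = 0.0249), a call lost in 3 of the 6 fits that left out a library. Of the R-Ras GTPases, on which plexins act, 2 rose, RRAS with a log2FC of 0.76 (padj = 0.00838, and 0.0542 without siCON replicate 3) and RRAS2 with 0.66 (padj = 0.000299). The related MRAS had all siDGk libraries below all siCON libraries, at a log2FC of −0.40 (padj = 0.266). The exchange factor FARP2 and the receptor kinase ERBB2, a plexin B partner, fell with log2FC of −0.87 and −0.52. The call of ERBB2 was lost in 4 of the 6 fits that left out a library, where its fold change was below the threshold. ITGB1, an integrin subunit bound by semaphorin 7A, had the highest CPM of the list at 763 ± 28.1 and 952 ± 69.5 CPM (SD, n = 3), with a log2FC of 0.32 (padj = 0.00375).

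Of 20 netrin partners and effectors, 11 were tested, 1 was called higher and 3 lower. ABLIM3, an actin-binding protein, rose with a log2FC of 1.05 (padj = 0.000187 in edgeR's test). NEO1, the netrin receptor neogenin, fell to 12.03 ± 2.04 CPM in siDGk from 24.2 ± 5.65 CPM in siCON (SD, n = 3). DAPK1 and MAGED1, which relay UNC5 signals in cell death, fell with log2FC of −1.30 and −0.90. Of 13 Slit and Robo partners, 12 were tested, and SRGAP1 and SRGAP2, GTPase-activating proteins that bind Robo receptors, were called higher with log2FC of 1.11 and 0.64. SRGAP1 lost its call in 3 and SRGAP2 in 5 of the 6 fits that left out a library, and SRGAP2 also with the replicate number in the model. ENAH, an actin regulator with the highest CPM of these partners, had a log2FC of 0.38 (padj = 0.00294).

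**Figure D5:**
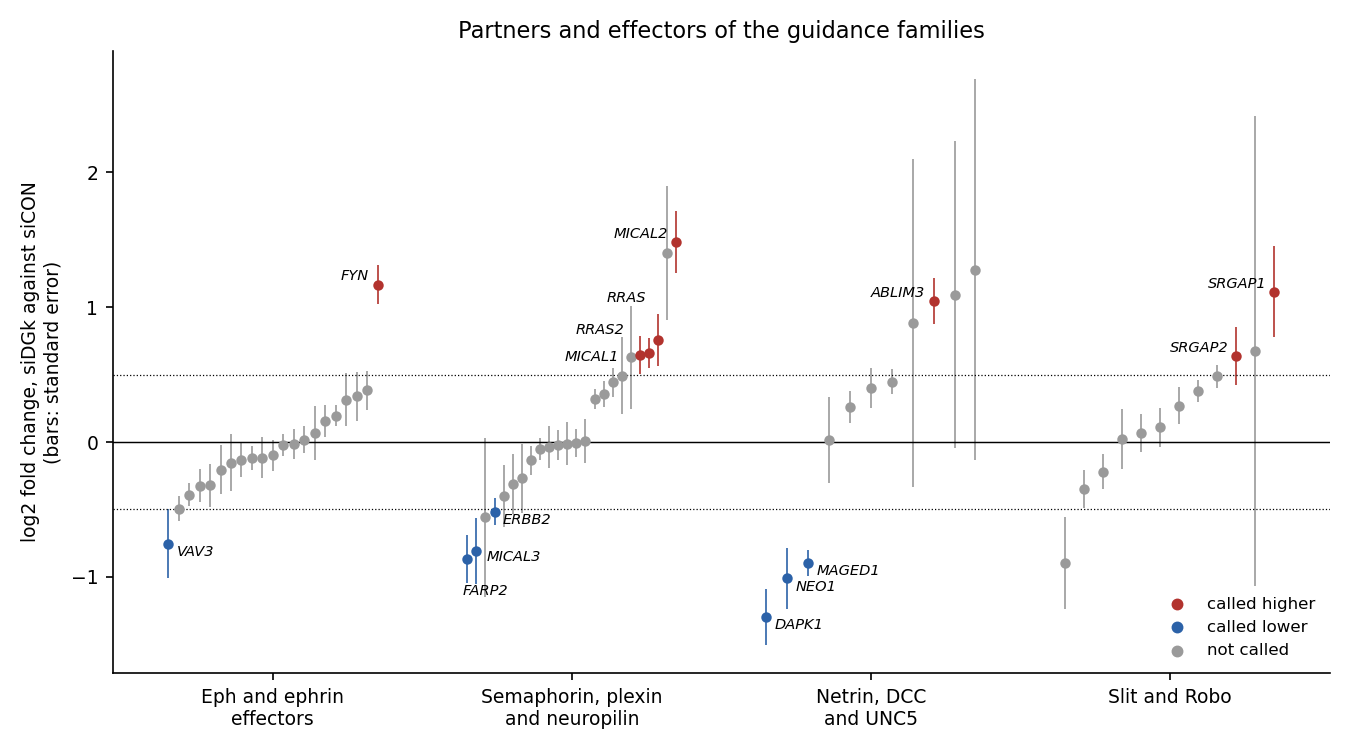
Log2 fold change of siDGk against siCON with standard errors for the 68 partner and effector genes tested, in 4 lists and sorted within each; dotted lines mark the threshold of 0.5 in either direction. MICAL2 and FYN are among the called rises and DAPK1 and NEO1 among the called falls, and the Slit and Robo list has no called fall.

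Markers of other cell types were counted because guidance genes are used widely. Of 8 fibroblast and stellate cell markers, 2 were called higher, COL1A1 and TAGLN, and 1 lower, PDGFRB. ACTA2 had the highest CPM of the list in siCON and TAGLN in siDGk. Other matrix genes were counted mainly in siDGk replicates 1 and 2, with 148, 254 and 9 counts of COL3A1, 124, 169 and 0 of COL1A2 and 21, 26 and 0 of DCN across siDGk libraries 1 to 3, and at most 14 in any siCON library. The summed level of the 8 markers was 58.7, 61.96 and 54.2 CPM across siCON libraries 1 to 3 and 94.2, 107 and 89.6 CPM across siDGk libraries 1 to 3. Of 5 cholangiocyte markers, KRT19 was called higher and EPCAM lower, and the sum, mostly KRT19, was 1237, 1466 and 1493 CPM across siCON libraries 1 to 3 and 2701, 2905 and 3104 CPM across siDGk libraries 1 to 3. Of 10 neuronal markers, 8 were listed and 1 was tested and called higher, TUBB3, while ELAVL4, NEFM and STMN2 had no count. The neuronal sum, nearly all TUBB3, was 10.4, 13.96 and 14.7 CPM across siCON libraries 1 to 3 and 29.0, 32.8 and 26.3 CPM across siDGk libraries 1 to 3. Of 9 leukocyte markers, 5 were tested and 0 were called by edgeR, and the sum, nearly all LYZ, was 1615, 1703 and 1704 CPM across siCON libraries 1 to 3 and 1902, 1758 and 1769 CPM across siDGk libraries 1 to 3. The part of these lists in the changes of the guidance genes was not tested.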

How the data were processed

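RNA-seq gene counts of 3 siCON and 3 siDGk HepG2 cultures were analysed. The counts were deposited by the authors as whole numbers, without normalization. They had aligned filtered paired-end reads to GRCh38 in STAR 2.6.1 and counted them per Gencode 27 gene with featureCounts 1.6.5, whose defaults ignore strand and drop reads shared between genes. The library kit is not given in the sources used here.

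The fit used edgeR 4.0.16 in R 4.3.3: low genes were dropped by filterByExpr at its minimum count of 10, the rest scaled by TMM and compared by a robust quasi-likelihood test on condition alone, with Benjamini-Hochberg adjustment over all genes tested. Calls needed padj under 0.05 and an absolute log2FC above 0.5. CPM used TMM-scaled library sizes. Standard errors were derived from the test, as the absolute log2FC divided by the square root of the test's F value. They are approximate, most of all for genes with few counts in a group. Library sizes from before filtering were kept. This was not the first setting run: the first recomputed them and called 2032 genes, and after 8 combinations of library size, TMM order and dispersion setting were run, calling from 2032 to 2051 genes, 1 whose counts equalled those already given for the whole series was used. The same 14 members were called under all 8, and the first setting called 1 more partner gene lower, VAV2. The fits were tested on simulated counts, in which the shrunken fold changes came out smaller than those simulated.

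Members, partner lists (Eph, semaphorin, netrin and Slit) and marker lists (hepatocyte, endothelial, fibroblast, cholangiocyte, neuron and leukocyte) were chosen with earlier results of these data known. A planned partner list is not reported and is in no total. Values per library were planned for called members and for the most abundant of each family, and other genes named were picked after their values were seen. The motifs, neighbours and exon overlaps were also chosen then. Alternatives were RLE and upper-quartile scaling, DESeq2 1.42.0 with and without shrinkage, 2 other filters, a replicate block, padj alone, and each library left out.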

Additional observations from a re-analysis of the deposited data

How the results depend on the processing

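Of the 14 members called, 7 were called in each of 13 alternative fits: EPHB1, SEMA3A, SEMA3B, SEMA7A, EPHA1, SEMA4G and SEMA3G. ROBO4 was called in the 12 that tested it, since a mean CPM above 10 left it out. EPHB4, NRP2, PLXNA1, PLXNA2, PLXNB3 and SEMA3C each lost the call in at least 1 fit without a library, and in no fit on all 6 libraries. With DESeq2, EPHA10 was also called. Single libraries left out gave from 6 to 9 members called higher and from 4 to 6 lower, and from 4 to 7 partner and effector genes called lower (4 without siCON replicate 2) and from 6 to 10 higher (10 without siCON replicate 2); the cause was not tested. Fits without a library also called SEMA4D (siCON replicate 1 out), PLXNA3 and SEMA4F (siCON replicate 2 out) and SEMA6B (siDGk replicate 1 out). Of the partner genes not called, VAV2 was called in 6 alternative fits, DPYSL4 in 5 and ARHGAP39 in 4. By padj alone 9 members were lower, and 14 partner and effector genes were higher, since no fold threshold applied. In either direction, 19 of the 43 members tested and 2847 of all 14476 genes tested passed padj alone. The median log2FC of the members was 0.03 with shrunken DESeq2 fold changes, 0.21 with no filter (all genes 0.1441) and 0.06 with a mean CPM above 10 (all genes −0.0053), and from 0.033 to 0.143 without single libraries (all genes 0.0024 to 0.0295); the cause was not tested. The replicate block gave 9 members called higher, 5 lower and 2077 genes called in all. Replicate numbers did not pair the libraries, with correlations of deviations of 0.024, 0.0166 and −0.00224. Of 59 single genes over all alternatives, 0 called genes reversed, and 11 values of uncalled genes changed sign. Members with few counts, such as SEMA4D, SLIT1, SLIT2, EFNB2 and UNC5B, varied widely between libraries of the same group and could not be resolved.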
